A study of Mus musculus with 65 samples.

Results

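Dendritic cells without the adaptor MyD88 were compared 2 h after lipopolysaccharide (LPS) with unstimulated cells of the same genotype. The comparison used 6 of the 65 libraries of the series, 3 at each time, chosen by their titles: MyD88KO, TrifWT, and either untreated at 0 h or given LPS for 2 h. All 6 came from bone marrow derived dendritic cells on the C57BL/6 background, with the interferon receptor and Suv39h1 intact (IfnarWT, Suv39h1WT). LPS was used at 100 ng/mL. Cohort numbers 1, 2 and 3 each named 1 library at 0 h and 1 at 2 h. Wild-type cells (MyD88WT, TrifWT, IfnarWT, Suv39h1WT, same strain, dose and times) gave the reference response from 6 libraries at 0 h and 5 at 2 h. Libraries of the same MyD88KO cells at 4 h are given for a few genes. The deleted part of Myd88, the number of animals behind each cohort, the age of the mice and the growth factors of the culture are not given in the sources used here.

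LPS is sensed by TLR4, which signals through MyD88 from the cell surface and through TRIF (gene Ticam1) from endosomes. The MyD88 arm drives rapid NF-kB and MAP kinase signalling and many inflammatory cytokine genes. The TRIF arm activates the kinase TBK1 and the factor IRF3, which switch on Ifnb1, the interferon-beta gene, and also activates NF-kB. Secreted interferon then acts through its receptor and STAT factors on interferon-stimulated genes. The question the comparison addresses is which transcripts LPS still changes when MyD88 is missing.

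The 6 libraries held 46.04 to 59.2 M counts on genes and 1.90 to 2.73 M on transposable elements (TEs), and replicates differed by more than sampling noise. Levels are given as CPM, counts per 1 M gene counts after TMM scaling, and folds as log2 fold changes with their standard error. A gene is called higher or lower at an adjusted p under 0.05 (edgeR quasi-likelihood test, Benjamini-Hochberg over all genes tested). The labelled cell type was checked against marker genes. All 12 conventional dendritic cell markers averaged at least 1 CPM over the 6 libraries. They summed to 5282 to 6778 CPM at 0 h and 6110 to 8716 CPM at 2 h. Most of that sum was H2-Aa, an MHC class II gene, at 3470 to 4683 CPM and then 4184 to 6508 CPM. Of 12 macrophage markers 11 also averaged at least 1 CPM, and the list summed to 2002 to 2807 and then 2066 to 3448 CPM. These sums do not measure the share of either cell type. Of the dendritic cell markers Zbtb46 and Xcr1 were called higher. The others were not called and went in both directions (Clec9a -0.95, Cd209a -0.67, Batf3 0.65, H2-Aa 0.39). Of the macrophage markers 1 was called lower. Granulocyte markers summed to 507, 203 and 665 CPM in cohorts 1, 2 and 3 before LPS, then 528, 176 and 850 CPM, with none of 12 called. Erythroid and megakaryocyte markers summed to 69.7 to 92.0 CPM at 0 h and 117 to 133 CPM at 2 h, mostly Ppbp and Pf4, with none called and haemoglobin genes at or near 0. B cell, T and NK cell, and fibroblast markers stayed at or under 11.6, 25.4 and 7.74 CPM. Plasmacytoid dendritic cell markers summed to 193 to 272.7 CPM at 0 h and 212 to 328 CPM at 2 h, with 1 of 8 called higher (Ccr9, under 0.4 CPM). Mast cell and basophil markers summed to 30.3 to 44.98 CPM and then 41.2 to 70.1 CPM, higher in each cohort, with none called. The part of these cells in the results was not tested. Xist, transcribed from the inactive X, lay between 492 and 687 CPM in the libraries of cohorts 1 and 2 and at or near 0 in those of cohort 3, at both times. In bulk libraries, fewer cells of a type and less RNA per cell cannot be told apart.

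LPS changed many transcripts of MyD88KO cells within 2 h. Of 14475 genes tested, 1278 were called higher (8.83%) and 1048 lower (7.24%), 16.1% in all. The cohort number paired the libraries, and with it as a replicate block 4216 genes were called (29.1%), 2162 higher (14.9%) and 2054 lower (14.2%). Of the 2326 genes called without the block, 2325 were called with it. The direction split depended on scaling: upper-quartile scaling gave 1014 higher and 1381 lower, and gene totals without scaling factors gave 681 higher and 2361 lower, with the median log2 fold change of all genes at -0.23 in place of -0.02. In wild-type cells, 3083 genes were called higher (21.3%) and 3558 lower (24.6%). In MyD88KO cells all 2 h libraries lay above all 0 h libraries in 2291 genes (15.8%) and below them in 2597 (17.9%), which is the background for every statement on overlap.

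The interferon-beta gene and direct targets of IRF3 had the highest median response of the 20 lists examined. Of 11 such genes tested, 10 were called higher, with a median log2 fold change of 4.24, against 4.99 in wild-type cells, where all 11 were called. Ifnb1 had 0, 2 and 1 counts at 0 h in cohorts 1, 2 and 3 and 208, 145 and 196 counts at 2 h, which is 3.67, 2.70 and 3.99 CPM. The pooled ratio was 232 (95% exact counting interval 78.9 to 1127), and the adjusted p was 9.93e-08. Every 2 h library lay above every 0 h library, and the wild-type range at 2 h was 6.35 to 14.7 CPM. Cxcl10, the gene of a chemokine that draws activated T cells and NK cells, went from 4.49, 9.01 and 6.22 CPM to 702, 519 and 609 CPM. It had the largest rise under the naming rule, 6.54 ± 0.50 (edgeR adjusted p = 2.3e-10). Ifit1, whose protein binds viral RNA that lacks host cap methylation, went from 2.91, 7.98 and 3.41 CPM to 224, 149 and 227 CPM, a rise of 5.40 ± 0.66. Isg15, the gene of a ubiquitin-like protein, went from 6.07, 8.86 and 7.11 CPM to 171, 104 and 140 CPM. In these 3 genes the groups did not overlap, and cohort 2 was the lowest library at 2 h and the highest at 0 h. Oasl1 (4.92 ± 0.45), Ifit2 (4.31 ± 0.60), Rsad2 (4.18 ± 0.79) and Ifih1, which encodes the sensor MDA5 for viral RNA (2.96 ± 0.40), were also called higher. Ccl5, a chemokine gene, read 177, 64.4 and 92.6 CPM at baseline, then 417, 167 and 340 CPM at 2 h, with overlapping groups. It was not called (edgeR adjusted p = 0.0608) but was called with the replicate block. None of the 11 had a called difference from wild type without the block and 1 had with it. These tests compare responses, not levels. At 2 h Cxcl10, Ifit1, Oasl1 and Ifit2 lay below the wild-type ranges (1089 to 2334 CPM for Cxcl10, 394 to 1608 CPM for Ifit1). Ccl5 overlapped with its range of 357 to 1264 CPM. Mean levels at 0 h were also lower than in wild type (Cxcl10 6.57 against 14.3 CPM, Ifit1 4.76 against 15.4 CPM, Ccl5 111 against 142 CPM).

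**Figure D1:**
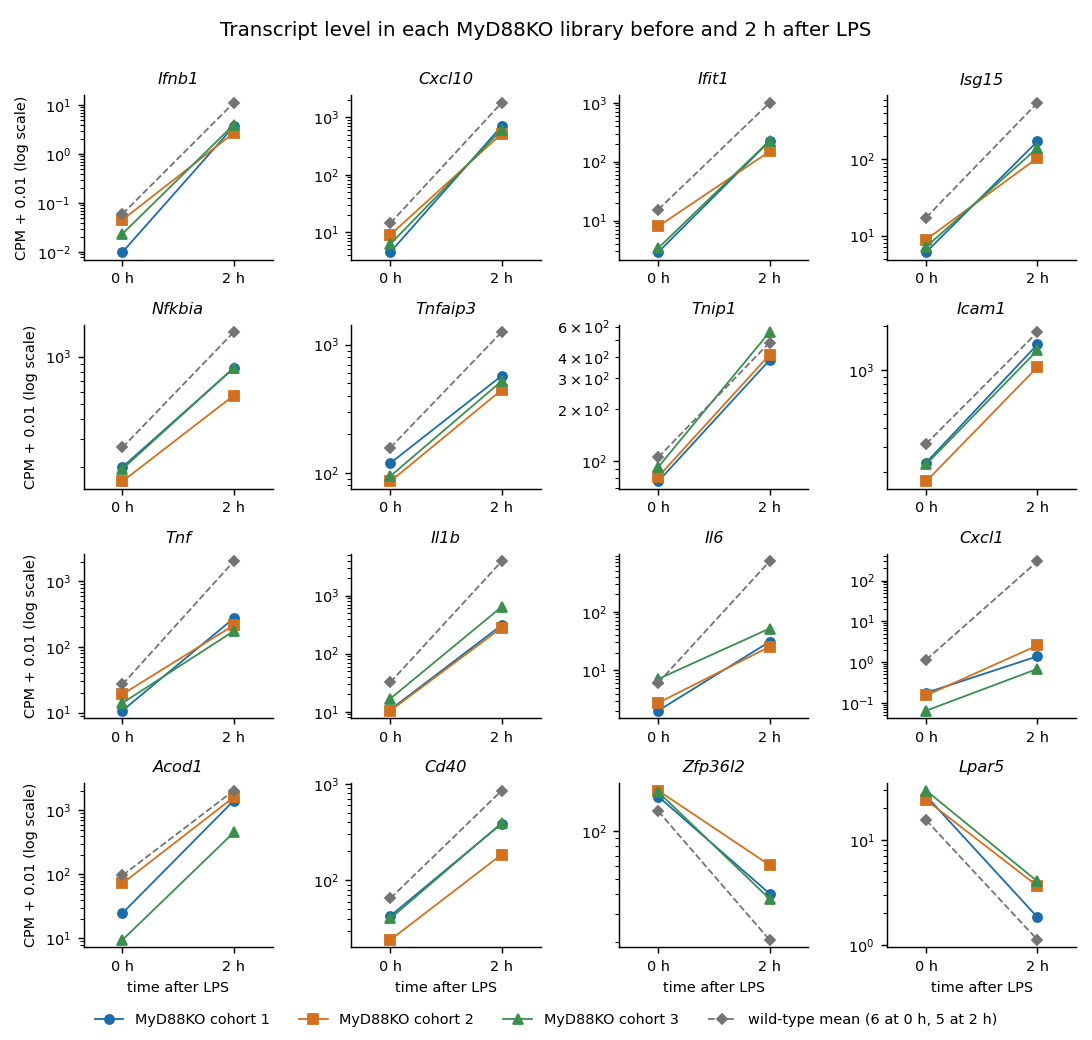
Level of 16 genes (CPM plus 0.01, log axis, scaled per panel) in each MyD88KO library at 0 h and 2 h after LPS, joined by cohort, with the wild-type mean as grey diamonds (6 libraries at 0 h, 5 at 2 h). All 3 MyD88KO lines rise or fall together in each panel; Cxcl10 ends at 519 to 702 CPM, while Cxcl1 ends at 0.671 to 2.55 CPM, far under wild type.

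Sequences just upstream of 6 of these and later genes are shown so that the letters bound by interferon-linked factors and by NF-kB can be seen beside the responses. Each run gives the 250 bases before the annotated transcription start, 5′ to 3′ on the gene's strand, from RefSeq on GRCm38.p6. Capitals mark matches on either strand to the core of the interferon-stimulated response element (GAAA, any 2 bases, then GAAA), which IRF and STAT complexes bind, or to a kappa-B site (GGGA, any 2 bases, then TTCC), which NF-kB binds. Ifnb1 (chr4:88522795-88523044, minus strand) holds 1 kappa-B match and no match to the response element core. GAAA runs with another spacing, such as gaaaactgaaa in Ifnb1, were not searched for. Cxcl10 (chr5:92348890-92349139, minus strand) holds 1 match of each kind. Ifit1 (chr19:34640639-34640888, plus strand) holds 2 response element matches, and Isg15 (chr4:156200819-156201068, minus strand) 3 that overlap. Nfkbia (chr12:55492648-55492897, minus strand) holds 1 kappa-B match, and Cxcl1 (chr5:90890995-90891244, plus strand) 2 that overlap.
Ifnb1: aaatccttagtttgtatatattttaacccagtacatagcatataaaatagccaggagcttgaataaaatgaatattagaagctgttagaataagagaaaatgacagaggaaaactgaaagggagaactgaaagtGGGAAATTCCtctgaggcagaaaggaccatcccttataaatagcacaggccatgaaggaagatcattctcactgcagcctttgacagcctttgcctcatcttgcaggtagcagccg
Cxcl10: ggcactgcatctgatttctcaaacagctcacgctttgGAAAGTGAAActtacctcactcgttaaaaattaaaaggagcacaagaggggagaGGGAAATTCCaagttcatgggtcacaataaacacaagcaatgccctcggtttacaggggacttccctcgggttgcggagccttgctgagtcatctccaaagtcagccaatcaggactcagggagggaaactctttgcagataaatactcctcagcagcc
Ifit1: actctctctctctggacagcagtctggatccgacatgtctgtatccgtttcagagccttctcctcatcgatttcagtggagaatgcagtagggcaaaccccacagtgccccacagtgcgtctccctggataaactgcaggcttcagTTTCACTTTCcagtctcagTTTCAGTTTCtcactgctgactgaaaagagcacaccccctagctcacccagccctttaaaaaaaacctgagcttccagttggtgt
Isg15: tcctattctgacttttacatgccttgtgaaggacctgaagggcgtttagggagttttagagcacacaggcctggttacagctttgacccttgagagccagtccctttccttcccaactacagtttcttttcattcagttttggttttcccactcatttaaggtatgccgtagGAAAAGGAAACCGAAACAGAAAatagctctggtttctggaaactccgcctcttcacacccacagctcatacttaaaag
Nfkbia: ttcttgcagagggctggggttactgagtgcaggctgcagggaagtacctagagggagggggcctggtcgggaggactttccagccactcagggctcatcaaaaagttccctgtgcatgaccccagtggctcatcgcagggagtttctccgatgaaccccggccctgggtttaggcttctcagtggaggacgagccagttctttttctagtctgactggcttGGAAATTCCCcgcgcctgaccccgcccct
Cxcl1: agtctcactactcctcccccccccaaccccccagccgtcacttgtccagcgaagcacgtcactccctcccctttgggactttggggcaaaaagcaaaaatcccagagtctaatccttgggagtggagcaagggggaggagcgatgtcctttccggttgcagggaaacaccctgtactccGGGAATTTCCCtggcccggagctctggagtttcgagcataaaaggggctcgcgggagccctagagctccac

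The response element core was counted in windows from 250 bases before to 50 bases after the start. It occurred in 448 of the 11342 tested genes with a RefSeq promoter (3.95%), in 6.54% of those called higher and in 3.82% of those called lower. Of the interferon-beta and IRF3 target list, 6 of 10 genes with a promoter held it, as did 15 of 25 interferon-stimulated genes. The kappa-B letters occurred in 1.74% of the tested genes, 3.02% of those called higher, 1.43% of those called lower, 4 of the 10 IRF3 targets and 3 of 11 chemokine genes. Another motif, the cyclic AMP response element TGACGTCA, was in 3.44%, 4.39% and 2.63% of these sets. These shares describe letters in short windows, without a test, and not binding.

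Interferon-stimulated genes had begun to rise by 2 h. Of 35 tested, 19 were called higher and none lower (26 higher with the replicate block), with a median of 1.19 against 2.24 in wild-type cells, where all 35 were called. Ifi205, a member of the interferon-inducible p200 family, went from 0.679, 0.551 and 0.777 CPM to 20.7, 16.2 and 28.1 CPM, a rise of 5.00 ± 0.46. Cmpk2, which encodes a mitochondrial nucleotide kinase, went from 4.86, 7.44 and 3.03 CPM to 111, 78.5 and 58.4 CPM. Neither gene's groups overlapped. Mx2, a GTPase gene of antiviral defence, rose by 3.75 ± 0.44 and Rtp4 by 2.92 ± 0.47. Ifitm3, which blocks entry of viruses, read 325, 367 and 385 CPM at baseline, then 369, 392 and 430 CPM at 2 h and was not called. Gbp2, a guanylate-binding protein gene, was higher in all 3 cohorts (177, 124 and 134 CPM to 291, 191 and 205 CPM) but was called only with the block. At 4 h the same cells held 1292, 772 and 1116 CPM of it. All 35 genes had a smaller fitted response than in wild type, yet no single difference was called without the block and 10 were with it.

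Some of the factors that carry the interferon signal rose. Of 18 receptor, STAT and IRF genes, 10 were called higher and none lower, with a median of 0.43 (0.86 in wild type). Without 0 h replicate 1, 0 h replicate 2 or 2 h replicate 3, 6 were called. Irf7, the factor that amplifies type I interferon, went from 4.61, 10.4 and 5.93 CPM to 37.7, 29.3 and 31.3 CPM (2.24 ± 0.45). Irf1 rose by 1.68 ± 0.29 and Irf9, a DNA-binding factor of the interferon pathway, by 1.24 ± 0.12. Jak1 (0.28 ± 0.15) and Stat3 (0.30 ± 0.18), both abundant, were not called, though both were called with the block. With gene totals and no scaling factors, 5 of the list were called higher and 1 lower.

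NF-kB subunits, inhibitors and survival targets mostly rose. Of 24 genes, 22 were called higher, none lower, with a median of 1.48 against 1.60 in wild-type cells. Nfkbia, which encodes the inhibitor IkB-alpha and whose promoter is shown above, went from 199, 161 and 194 CPM to 846, 567 and 849 CPM. Tnip1, a partner of the deubiquitinase A20, went from 76.1, 80.9 and 92.2 CPM to 383, 412 and 557 CPM. Both sets of values were fully apart. The rise of Tnip1 was 2.44 ± 0.15, against 2.21 ± 0.11 in wild type, and the difference was 0.23 ± 0.18 (edgeR adjusted p = 0.838). Tnfaip3, the gene of A20, rose by 2.36 ± 0.24 and Tnfaip2 by 2.90 ± 0.23. The subunit genes Rela (0.87 ± 0.07), Nfkb1 (1.29 ± 0.15) and Relb (1.23 ± 0.21) were called higher as well. Birc2 (0.27 ± 0.24) and Tnip2 (-0.09 ± 0.16) were not called. Bcl2a1b and Bcl2a1d, both called higher, are near-identical copies whose reads may have been split between them by the authors' counting.

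Without the block, 1 gene of this list had a called difference from wild type, Nfkbiz. With the block, 1 gene was called with the smaller response and 1 with the larger. Nfkbiz, which encodes an atypical IkB protein needed for a second wave of cytokine genes, read 13.9, 12.8 and 13.02 CPM at baseline, then 137, 86.4 and 93.5 CPM at 2 h, a rise of 2.99 ± 0.34. The 5 wild-type libraries at 2 h held 600 to 1465 CPM, and the response differed by -2.58 ± 0.40 (edgeR adjusted p = 0.00126). The MyD88KO libraries at 2 h therefore lay above their own baseline and below the wild-type range.

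**Figure D2:**
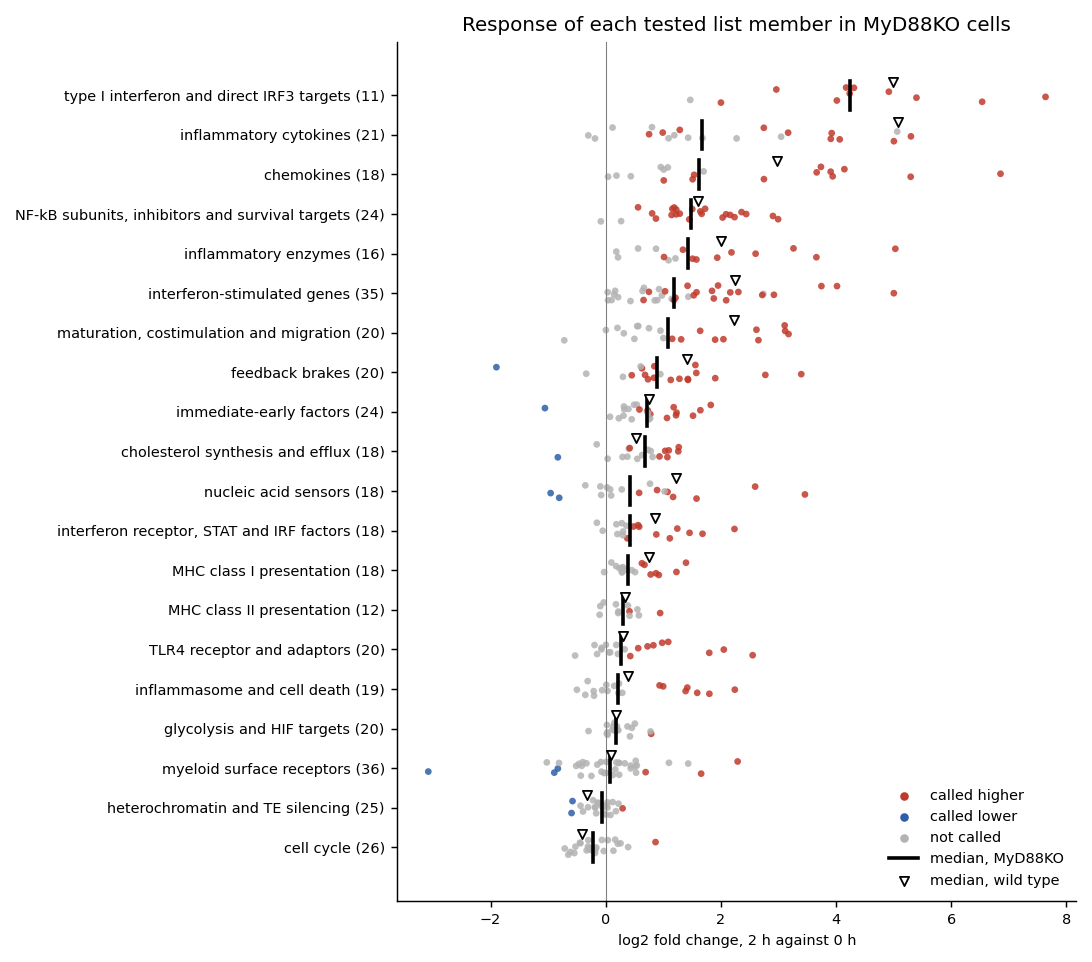
Log2 fold change at 2 h (x axis) of every tested member of 20 gene lists (y axis, number tested in brackets) in MyD88KO cells, coloured by call, with the MyD88KO median as a bar and the wild-type median as a triangle. Interferon and IRF3 targets are farthest right (median 4.24), NF-kB genes have medians of 1.48 and 1.60 without and with MyD88, and cytokines have medians of 1.68 and 5.07.

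Inflammatory cytokine genes rose in part. Of 21 tested, 10 were called higher and none lower (15 higher with the block). The median was 1.68 against 5.07 in wild-type cells, in which all 21 were called higher, and 20 of 21 had the smaller fitted response without MyD88. Il1b, the interleukin-1 beta gene, went from 10.9, 10.5 and 16.9 CPM to 310, 280 and 639 CPM, a rise of 5.00 ± 0.43. Tnf went from 10.7, 19.1 and 14.01 CPM to 275, 215 and 175 CPM (3.92 ± 0.52). Neither overlapped with baseline, and both lay under the wild-type ranges at 2 h of 2866 to 4780 and 1246 to 2951 CPM. The differences of their responses were not called without the block (adjusted p = 0.0581 and 0.0749 in edgeR) and were called with it (0.00122 and 0.00177). Over the list, 2 differences from wild type were called without the block and 10 with it, all of them smaller responses. At 4 h, Il1b read 86.3, 96.5 and 229 CPM and Tnf 118, 93.9 and 84.7 CPM, lower than at 2 h in all 3 cohorts. Il1b was highest in cohort 3 at each time, where granulocyte markers were also highest, and whether those cells contributed was not tested. Il1a (3.91 ± 0.70) and Tnfsf15 (4.06 ± 0.72) were called higher too. Their responses were smaller than wild type by -2.92 ± 0.80 and -2.67 ± 0.81. These differences were called only with the block (edgeR adjusted p = 1.06e-05 and 0.00299). Il1rn, the receptor antagonist (1.19 ± 0.53), and Inhba (1.43 ± 0.72) were called only with the block.

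Without the block, Il6 had the lowest adjusted p of the cytokines for a difference from wild type. It read 2.05, 2.79 and 7.13 CPM at baseline, then 30.8, 25.3 and 51.8 CPM at 2 h (3.17 ± 0.51), while wild-type cells at 2 h held 378 to 1171 CPM. The response was smaller by -3.71 ± 0.61 (edgeR adjusted p = 0.00197; 5.35e-05 with the block, above that of Il1a). Il23a, a subunit of interleukin-23, went from 0, 7 and 0 counts to 87, 77 and 73 counts, or 1.54, 1.44 and 1.49 CPM, against 30.1 to 107 CPM in wild type. Its difference was not called (adjusted p = 0.35), its baseline being near the counting limit. Csf1, the macrophage growth factor gene, went from 50.6, 60.3 and 47.2 CPM to 114, 102 and 98.3 CPM, and its response was smaller than wild type by -1.44 ± 0.33 (edgeR adjusted p = 0.0411). That call was lost without any 1 of the 6 libraries (adjusted p = 0.0757 to 0.139).

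Chemokine genes rose in part. Of 18 tested, 11 were called higher and none lower (15 with the block), with a median of 1.62 against 2.98 in wild type. Cxcl9, which like Cxcl10 and Cxcl11 encodes a ligand of CXCR3, went from 0.582, 0.266 and 0.709 CPM to 26.4, 8.76 and 27.3 CPM, a rise of 5.30 ± 0.55 (wild type 5.56 ± 0.39). Cxcl11 had 3, 1 and 3 counts at 0 h and 289, 141 and 249 at 2 h, a pooled ratio of 123 (95% exact counting interval 59.3 to 307). The neutrophil chemokine gene Cxcl1 was low at both times: 0.166, 0.142 and 0.0545 CPM became 1.38, 2.55 and 0.671 CPM (12, 8 and 4 counts, then 78, 137 and 33). Although called higher (3.66 ± 0.62), it stayed far below the wild-type 188 to 497 CPM, a difference of -4.38 ± 0.91 (edgeR adjusted p = 0.0202). Without 0 h replicate 1 or 2 that difference was not called (adjusted p = 0.191 and 0.11). Cxcl2 rose by 3.94 ± 0.54 and Cxcl3 by 3.91 ± 0.73, with differences from wild type of -2.11 ± 0.60 and -0.66 ± 0.82. Neither difference was called without the block, and that of Cxcl2 was called with it (edgeR adjusted p = 0.00189). Ccl3, the MIP-1 alpha gene, went from 16.3, 17.98 and 10.8 CPM to 63.2, 52.4 and 30.6 CPM. It was not called except with the block, and its response was smaller than wild type by -3.65 ± 0.78 (edgeR adjusted p = 0.027), lost without any 1 of 5 of the 6 libraries. Ccl4 rose by 4.15 ± 0.81. Ccl6 and Ccl9, abundant at baseline, were not called, though Ccl9 was with the block.

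Brakes on signalling were induced alongside. Of 20 feedback genes, 15 were called higher and 1 lower, with a median of 0.90 (1.41 in wild type). Dusp2, a phosphatase of MAP kinases, went from 2.09, 0.941 and 3.23 CPM to 22.2, 8.56 and 35.8 CPM (3.40 ± 0.55). Cish rose by 1.90 ± 0.31. Socs3, an inhibitor of cytokine receptors that signal through STAT3, went from 8.01, 11.7 and 12.7 CPM to 64.0, 68.1 and 88.8 CPM, without overlap. Its rise of 2.77 ± 0.32 was smaller than wild type by -2.67 ± 0.38 (edgeR adjusted p = 0.000325). Zc3h12a, whose protein Regnase-1 degrades cytokine transcripts, rose by 0.73 ± 0.19, smaller by -1.70 ± 0.24 (edgeR adjusted p = 0.000325). Socs1 rose by 1.56 ± 0.32, and its smaller response (-1.79 ± 0.40, edgeR adjusted p = 0.0336) was not called without any 1 of 5 of the libraries. Zfp36l2, an RNA-decay factor, was the member that fell: 164, 179 and 175 CPM became 40.4, 61.0 and 37.5 CPM (-1.90 ± 0.24). Rgs1 and Irak3 were called only with the block.

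Immediate-early factors were mixed. Of 24, 10 were called higher and 1 lower, with a median of 0.72 (0.76 in wild type). Egr2 went from 30.8, 27.6 and 19.8 CPM to 96.3, 89.98 and 90.3 CPM, higher than the wild-type 52.0 to 76.2 CPM at 2 h. The difference of the responses, 1.21 ± 0.43, was not called (edgeR adjusted p = 0.301). Maff rose by 1.64 ± 0.14, Nr4a1 by 1.52 ± 0.35 and Nr4a3 by 1.22 ± 0.24. Fos, the classical member, read 5.65, 9.59 and 8.03 CPM at baseline, then 4.22, 8.204 and 12.1 CPM at 2 h, with overlap. Klf4 fell by 1.06 on the log2 scale. No gene of the list was called lower without 0 h replicate 2 or without 2 h replicate 1. The same held in the 6 or the 9 MyD88KO libraries alone, fitted without the block. Cebpd was not called (8.30, 11.3 and 11.7 CPM to 14.2, 12.9 and 13.9 CPM), and its response was smaller than wild type by -1.61 ± 0.36 (edgeR adjusted p = 0.0371), a call lost without any 1 of 5 of the libraries.

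Some maturation genes had risen by 2 h. Of 20 maturation, costimulation and migration genes, 10 were called higher and none lower (15 with the block), with a median of 1.08 (2.22 in wild type). Cd40, the receptor for T cell help, went from 42.7, 24.1 and 40.2 CPM to 388, 185 and 393 CPM, a rise of 3.17 ± 0.35 (wild type 3.72 ± 0.26). Marcksl1 went from 152, 86.2 and 107 CPM to 1229, 646 and 1101 CPM, a rise of 3.11 ± 0.30 against 3.04 ± 0.21 in wild type. In both genes cohort 2 was the lowest library at each time, yet no 2 h library overlapped with baseline. At 2 h Cd40 lay below the wild-type 512 to 1090 CPM, and Marcksl1 overlapped with the wild-type 1211 to 2241 CPM. The costimulators Tnfsf9 (3.12 ± 0.25) and Cd70 (2.65 ± 0.38) and the adhesion gene Icam1 (2.62 ± 0.18) also rose. Ccr7, which guides cells to lymph nodes, read 867, 584 and 663 CPM at baseline, then 1045, 652 and 930 CPM at 2 h and was not called, nor was Fscn1, except with the block. Slamf1 was not called (0.00 ± 0.42; 6.12, 3.07 and 10.3 CPM to 7.52, 4.38 and 7.65 CPM). It differed from wild type by -2.26 ± 0.52 (edgeR adjusted p = 0.0411), which was lost without any 1 of 5 of the libraries.

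Enzymes of inflammation rose in part. Of 16, 10 were called higher and none lower, with a median of 1.42 (2.01 in wild type). Acod1, which makes itaconate, went from 24.8, 72.2 and 9.46 CPM to 1418, 1609 and 451 CPM. Its rise of 5.03 ± 0.79 stood beside 4.40 ± 0.55 in wild type, and cohort 3 was lowest at each time. Ptgs2, the inducible cyclooxygenase gene, went from 0.790, 2.08 and 2.28 CPM to 15.5, 21.3 and 28.1 CPM (3.66 ± 0.55), against 434 to 1224 CPM in wild type. The response was smaller than in wild type by -4.43 ± 0.65 (edgeR adjusted p = 0.000541). Ch25h, which makes 25-hydroxycholesterol, rose by 3.26 ± 0.71. Saa3 (2.60 ± 0.87) was called, but not without any 1 of 5 of the libraries (adjusted p = 0.0565 to 0.143). Hmox1 and Mmp13 were called only with the block.

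Without the block a minority of antigen presentation genes were called. Of 18 MHC class I genes, 7 were called higher (11 with the block) and none lower, with a median of 0.39. Over all genes 8.83% were called higher (14.9% with the block). H2-Q4 went from 91.3, 76.6 and 86.6 CPM to 220, 155 and 221 CPM (1.23 ± 0.14), and H2-Q7 rose by 1.39 ± 0.25, but these are close relatives whose reads may be shared. Tapbpl (0.92 ± 0.17) and Tap1, the peptide transporter subunit (0.87 ± 0.17), rose. B2m and Psme2 were called only with the block. Of 12 class II genes, 2 were called higher (6 with the block), with a median of 0.30. Without the block the share called was near the 16.1% of all genes, and with it above their 29.1%. Without 0 h replicate 2 no class II gene was called, and without any 1 of 4 other libraries 1 was. Ciita, the class II transactivator, went from 291, 198 and 262 CPM to 495, 397 and 555 CPM (0.94 ± 0.26), but missed the threshold without 0 h replicate 2 (adjusted p = 0.0726) or 2 h replicate 3 (0.0569). H2-DMb1 (0.41 ± 0.14) lost its call without 5 of the 6 libraries in turn. Cd74 and H2-Aa, at 8967 to 12685 and 4184 to 6508 CPM at 2 h, were called only with the block.

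Some nucleic acid sensor genes changed. Of 18 nucleic acid sensor genes, 7 were called higher and 2 lower. Trex1, a nuclease that degrades cytosolic DNA, went from 35.8, 37.3 and 41.1 CPM to 259, 188 and 243 CPM (2.60 ± 0.24; wild type 2.76 ± 0.17). Ddx58, the gene of RIG-I, rose by 1.58 ± 0.34 and Cgas by 1.17 ± 0.20. Dhx58 rose by 1.07 ± 0.32, with adjusted p of 0.0573 to 0.0965 without 0 h replicate 1, 0 h replicate 3 or 2 h replicate 3. One of the lower genes was Mavs, the adaptor of RIG-I (37.7, 39.7 and 47.8 CPM to 17.7, 22.9 and 23.8 CPM, -0.96 ± 0.16). Both groups of Mavs values were apart. Aim2 (0.08 ± 0.11) was not called, and differed from wild type by -0.60 ± 0.14 (edgeR adjusted p = 0.046), which no fit with a library left out kept. Samhd1 and Sting1 were not called.

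Among 20 genes of the TLR4 receptor and its adaptors, 9 were called higher and none lower, with a median of 0.27 (0.31 in wild type). With the block 10 were called higher and 1 lower. The lower one was Tlr4, the LPS receptor itself, which read 62.7, 93.7 and 66.2 CPM before LPS and 46.4, 79.4 and 28.04 CPM at 2 h. The groups overlapped, but all 3 cohorts were lower (-0.65 ± 0.19 with the block, edgeR adjusted p = 0.0129; -0.53 ± 0.33 and adjusted p = 0.319 without it). Myd88 itself was still transcribed, at 48.6, 46.2 and 48.2 CPM at baseline, then 115, 93.7 and 95.2 CPM at 2 h (1.09 ± 0.10). Wild-type cells held 269 to 324 CPM at 2 h, and the response was smaller by -0.88 ± 0.12 (edgeR adjusted p = 0.000286). Since the deleted part is not given, these reads do not test the label. Ticam1, the gene of TRIF, read 27.1, 29.8 and 36.9 CPM at baseline, then 26.1, 29.3 and 43.6 CPM at 2 h (0.08 ± 0.59). That standard error rests on a spread shared with the TrifKO libraries, where Ticam1 read 45.6, 50.3 and 2.94 CPM at 2 h. Peli1, a ubiquitin ligase of this pathway, went from 35.8, 31.7 and 33.8 CPM to 203, 175 and 217 CPM (2.55 ± 0.17). Ikbke, a relative of TBK1, rose by 2.05 ± 0.55, with adjusted p = 0.0665 without 0 h replicate 3. Cd14, the LPS co-receptor, rose by 1.80 ± 0.29. Cd36 and Tab2 were not called.

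Of 19 inflammasome and cell death genes, 7 were called higher and none lower, and 4 were called without 0 h replicate 2. Nlrp3, the inflammasome sensor, went from 67.6, 65.2 and 73.4 CPM to 258, 242 and 217 CPM (1.80 ± 0.17), smaller than wild type by -1.17 ± 0.21 (edgeR adjusted p = 0.00425). Bcl2l11, the gene of the death factor BIM, went from 81.2, 79.2 and 83.9 CPM to 249, 209 and 195 CPM (1.42 ± 0.19), smaller by -1.32 ± 0.23 (edgeR adjusted p = 0.00429). Neither gene overlapped with baseline. Casp4, which senses cytosolic LPS, rose by 1.59 ± 0.21 and Daxx by 1.39 ± 0.23. Mcl1 was called only with the block.

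Of 36 myeloid surface receptors, 3 were called higher and 3 lower, a share near that of all genes. With the block 6 were called higher and 5 lower, and 10 and 9 when the block was fitted in the 9 MyD88KO libraries alone. Tlr2, a receptor for bacterial lipoproteins, went from 62.0, 132 and 56.5 CPM to 377, 588 and 261 CPM (2.29 ± 0.36), and Clec4a1 rose by 1.66 ± 0.39. Lpar5, given below, had the largest fall of the list (-3.08). P2ry6 fell by 0.89 on the log2 scale, a call that ended without any 1 of 4 libraries. Csf2rb and Clec4n, the most abundant members without a call, changed by 0.01 ± 0.15 and 0.43 ± 0.29. Of 26 cell cycle genes only Ccnd1, cyclin D1, was called (0.86 ± 0.28), against 16.1% of all genes. It missed the threshold under upper-quartile scaling (adjusted p = 0.0527), without the TrifKO libraries, and without 0 h replicate 1, 0 h replicate 2 or 2 h replicate 3 (adjusted p = 0.203, 0.0706 and 0.232), which left no cell cycle gene called. In the 6 libraries alone 5 were called lower and none higher, and with the block in the 9 MyD88KO libraries 3 were called higher and 8 lower. Mki67 and Top2a were not called. Of 20 glycolysis and HIF target genes 7 were called with the block, against 29.1% of all genes. Without the block only the glucose transporter Slc2a1 was (0.79 ± 0.23), against 16.1% of all genes. It lost the call without 0 h replicate 1 or 2 h replicate 2 (adjusted p = 0.117 and 0.0873), while Gapdh was called only with the block and Pkm was not called. Without scaling factors no glycolysis gene was called, and 1 cell cycle gene was called lower.

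Several cholesterol genes rose. Of 18, 7 were called higher and 1, Abcg1, lower (11 and 1 with the block), with a median of 0.68 (0.52 in wild type). Without 0 h replicate 1, 0 h replicate 2, 2 h replicate 1 or 2 h replicate 3, 4 were called in all, and without scaling factors 4 were called higher and 1 lower. Hmgcs1, an enzyme early in the synthesis pathway, went from 172, 132 and 137 CPM to 368, 308 and 384 CPM (1.27 ± 0.35). Insig1 rose by 1.26 ± 0.27. Cyp51 (1.09 ± 0.35) was called, with adjusted p of 0.0574 to 0.12 without any 1 of 5 libraries. Abca1, a cholesterol exporter, was not called and showed the cohort spread: 120, 94.9 and 24.03 CPM at baseline, then 168, 178 and 24.7 CPM at 2 h.

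Of 25 genes of heterochromatin and TE silencing, 1 was called higher and 2 lower (2 and 3 with the block), with a median of -0.06. These shares were below those of all genes tested, of which 16.1% were called (29.1% with the block). Without 2 h replicate 1 or 2 h replicate 3, 1 gene of the list was called. Setdb1, the methyltransferase that silences retroviral elements, went from 57.5, 53.7 and 59.1 CPM to 34.1, 37.0 and 41.7 CPM (-0.59 ± 0.11, edgeR adjusted p = 0.000342), without overlap. In wild-type cells it changed by -0.84 ± 0.08. Its partner Atf7ip fell by 0.58 on the log2 scale, with adjusted p of 0.0564 to 0.121 without 4 of the 6 libraries in turn. Pphln1 (0.29 ± 0.08) was called higher, but not under upper-quartile scaling or without 0 h replicate 2, 2 h replicate 1 or 2 h replicate 3. Atrx and Ehmt2 were not called. Without scaling factors 5 of the list were called lower and none higher, and under upper-quartile scaling 3 and none.

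Of the 10 largest falls, only that of Lpar5 lay inside a list above, the myeloid surface receptors. Lpar5, a receptor for lysophosphatidic acid, went from 26.3, 24.1 and 29.6 CPM to 1.82, 3.62 and 4.01 CPM, a change of -3.08 ± 0.58. Adora3, an adenosine receptor gene, went from 26.6, 23.4 and 29.3 CPM to 4.54, 5.02 and 3.58 CPM (-2.59 ± 0.44). Cbx8, a subunit of a Polycomb repressor complex, went from 6.91, 5.15 and 5.40 CPM to 1.08, 1.01 and 1.38 CPM (-2.33 ± 0.35). All 3 were fully apart between times. Fam78a (-2.58), Frat1 (-2.48), Dnajc28 (-2.44), Rhobtb2 (-2.29), Abhd15 (-2.24), Rnf144b (-2.20) and Gpr146 (-2.16) completed the 10 largest falls. Ptx3, the gene of a soluble pattern receptor, and Tmem200b were among the 10 largest rises (4.66 ± 0.82 and 4.74 ± 0.62). Tmem200b rose from 15, 0 and 31 counts to 394, 227 and 320. Ifit3b rose by 4.98 ± 0.60 and is close in sequence to Ifit3, so reads may be shared.

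Set against wild type over all genes, the response without MyD88 differed in 64 genes (0.442%), 8 with the higher (0.0553%) and 56 with the lower fitted response (0.387%). With the replicate block the count was 456 (3.15%), 170 higher (1.17%) and 286 lower (1.98%). Leaving out any 1 of the 6 libraries cut it to 19 to 36, of which 1 to 4 were higher, and leaving out the TrifKO libraries to 39, of which 1 was. All MyD88KO libraries carry library numbers below 33 in their labels, and against wild-type libraries below that number alone 6 genes were called, all lower. That wild-type set was smaller: libraries 1, 5 and 11 at 0 h and 3 and 13 at 2 h. Fitted differences moved little for Ccl3 (-3.62 against -3.65) and more for Il6 (-3.42 against -3.71) and Nlrp3 (-0.89 against -1.17). Whether the drop in calls came from the size of the set was not tested. Of the 15 named genes with a called difference, 5 were called in that setting. Nfkbiz, Socs3, Zc3h12a and Ptgs2 were called in every alternative run.

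**Figure D3:**
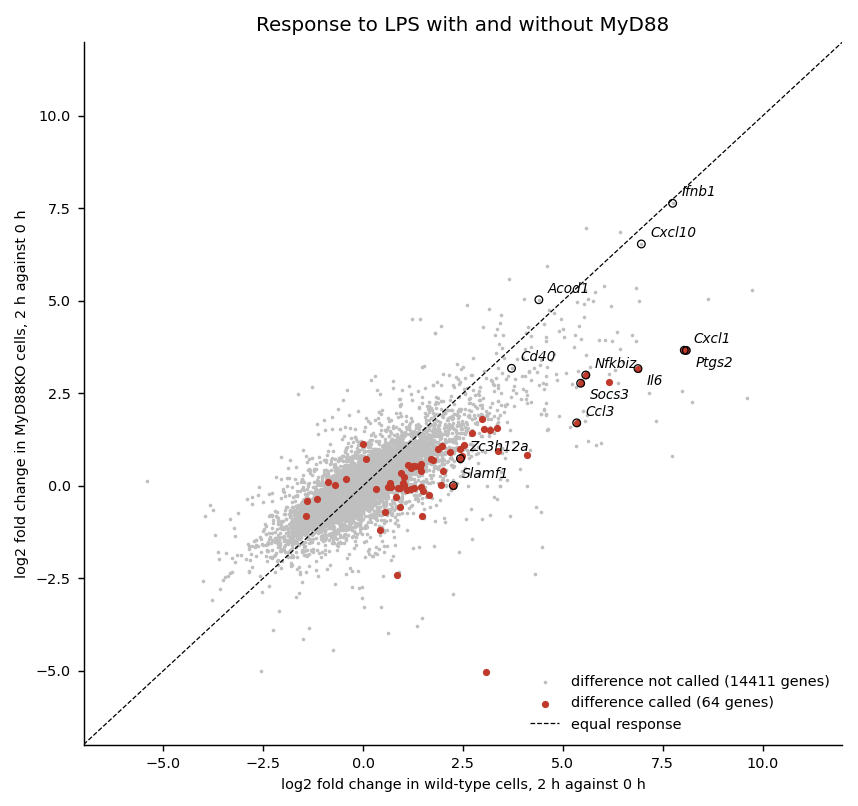
Log2 fold change at 2 h in MyD88KO cells (y axis) against wild-type cells (x axis) for the 14475 genes tested; red points are the 64 genes whose responses differed by the test and the dashed line marks equal responses. Ifnb1, Cxcl10, Acod1 and Cd40 lie near the line, while Cxcl1, Ptgs2, Il6 and Ccl3 lie well below it. The place of Ifnb1 is limited by counting, with 0, 2 and 1 counts at 0 h in MyD88KO cells. Its level at 2 h was below wild type (2.70 to 3.99 against 6.35 to 14.7 CPM).

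Transposable elements shifted upward in a minority of subfamilies. Of 945 subfamilies tested, 66 were called higher (6.98%) and 7 lower (0.741%), 7.72% in all, and the median change was 0.20. With the replicate block 239 were called higher (25.3%) and 36 lower (3.81%). Under TMM factors from the subfamilies themselves the median became 0.00, with 92 higher and 53 lower. Without scaling factors 35 were higher and 33 lower. The excess of higher over lower calls therefore depended on the scaling. Leaving out 0 h replicate 2 or 2 h replicate 1 gave 44 and 46 called subfamilies. By class, 42 of 592 LTR, 11 of 150 LINE, 1 of 35 SINE and 11 of 167 DNA subfamilies were called higher. With the block these counts were 144, 41, 27 and 26, so the order of the classes changed, with SINE subfamilies going from the lowest share to the highest. In wild-type cells 370 subfamilies were called higher (39.2%) and 51 lower (5.4%), 44.6% in all, and 1 subfamily, MamRep38 (DNA, hAT), differed between genotypes (-2.01 ± 0.41, edgeR adjusted p = 0.0306), or 0.106%.

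The share of gene and TE counts on TEs was 4.13% ± 0.20 at 0 h and 4.48% ± 0.28 at 2 h (SD, n = 3), a change of 0.347 percentage points with p = 0.2 (two-sided exact permutation of libraries, smallest possible p 0.1). Cohorts 1, 2 and 3 changed by 0.444, 0.498 and 0.0987 points, all upward (exact paired p = 0.25, the smallest that 3 pairs allow). LTR elements made up 31.5% ± 0.54 of TE counts at 0 h and 33.4% ± 1.29 at 2 h (exact permutation p = 0.1). DNA elements went from 4.57% ± 0.07 to 4.28% ± 0.07 (exact permutation p = 0.1). These are the smallest p-values that 3 against 3 can give, and neither passes 0.05.

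The largest subfamily changes came mostly from a single copy each. MER89, an ERV1 element, went from 1.86, 2.06 and 2.40 CPM to 15.6, 13.9 and 21.7 CPM (3.02 ± 0.29, edgeR adjusted p = 6.9e-09), and 1 of its 614 copies held 98.3% of that change. MLTR18_MM went from 12.7, 9.89 and 9.54 CPM to 44.7, 38.97 and 37.7 CPM, with 99.5% on 1 copy. RMER19A, the most abundant of those named, went from 97.4, 52.9 and 60.8 CPM to 314, 150 and 204 CPM, with 94.9% on 1 of 2095 copies. None of these 3 overlapped between times. ERVB5_1-I_MM-int, the internal part of an ERVK element, was different: it went from 0.748, 1.08 and 0.627 CPM to 7.96, 6.73 and 4.98 CPM (3.01 ± 0.69), the top copy held 32.0% of the change, and 7 of its 8 tested copies were called higher. MER34-int (2.54 ± 0.43) had 40.6% on its top copy. RLTR11C_MM (1.85 ± 0.48), RLTR13B4 (1.84 ± 0.29) and RLTR26 (1.79 ± 0.25) completed the 8 largest rises. RLTR11C_MM was not called without 0 h replicate 2, 0 h replicate 3 or 2 h replicate 1 (adjusted p = 0.0508 to 0.0968).

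**Figure D4:**
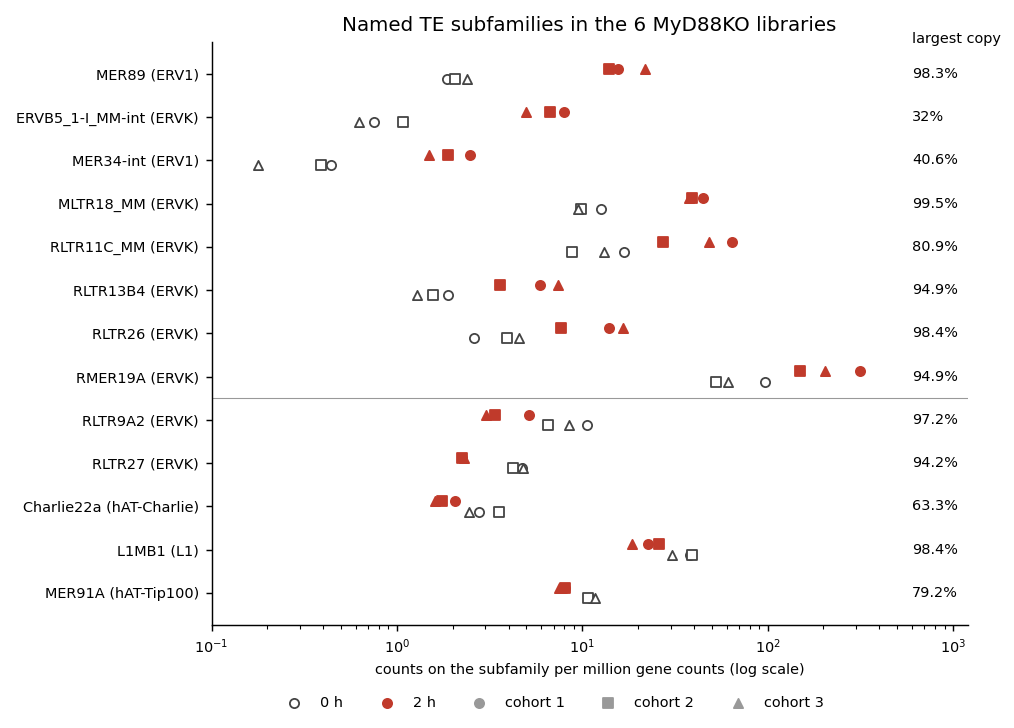
Counts on the 13 named TE subfamilies per 1 M gene counts (log axis) in each MyD88KO library at 0 h (open) and 2 h (filled red), symbols by cohort, with the share of the change held by the largest copy at the right. The 8 above the line rose and the 5 below fell; in 8 of the 13 over 90% of the change was on 1 copy, and in ERVB5_1-I_MM-int 32.0% was.

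Falls were smaller. RLTR9A2 went from 10.6, 6.57 and 8.49 CPM to 5.16, 3.39 and 3.03 CPM (-1.15 ± 0.24), RLTR27 changed by -1.02 ± 0.18, and 97.2% and 94.2% of these changes were on 1 copy. Charlie22a (-0.69), L1MB1 (-0.69) and MER91A (-0.50) were called lower, and each lost the call without at least 1 library (adjusted p up to 0.138, 0.143 and 0.0576). Their top copies held 63.3%, 98.4% and 79.2% of the change. In L1MB1, 5 of the 23 tested copies were called higher and 2 lower. Of 64924 single copies tested, 4022 were called higher (6.19%) and 617 lower (0.95%), or 7.15%, and 7756 were called with the block (11.9%), 6456 of them higher (9.94%). Leaving out 0 h replicate 2, 0 h replicate 3 or 2 h replicate 1 gave 2727, 2654 and 2623. The shares called higher were alike by class: 6.49% of LTR, 6.02% of LINE, 6.14% of SINE and 5.99% of DNA copies.

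Among single copies, Lx8 copy 1501220 (a LINE fragment, numbered as in the deposited table) went from 0.0554, 0.249 and 0.0273 CPM to 8.12, 8.69 and 2.54 CPM (5.93 ± 0.87). Lx8 copies 1501218 and 1501217 rose by 5.75 ± 0.91 and 5.52 ± 0.90, and B4A copy 1501222 by 5.30 ± 0.72. In these 4 neighbouring numbers cohort 2 was highest and cohort 3 lowest at 2 h. RLTR6_Mm copy 1198551 went from 0.263, 0.746 and 0.232 CPM to 25.9, 24.3 and 7.89 CPM, and MTD copy 2315871 from 0.235, 0.586 and 0.245 CPM to 17.7, 10.3 and 18.8 CPM. ORR1A4-int copy 1233806 (-1.93 ± 0.26), MIRc copy 316430 (-1.61 ± 0.41), Lx6 copy 164706 (-1.56 ± 0.40) and B1_Mur3 copy 1720992 (-1.41 ± 0.34) were the largest falls. Lx6 copy 164706 was not called without 0 h replicate 3 or 2 h replicate 1 (adjusted p = 0.0606 and 0.0991). The table gives no coordinates, so whether these copies lie inside gene transcripts was not analysed here.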

How the data were processed

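Read counts per gene and per TE copy were deposited by the authors as whole, unnormalized numbers. PolyA RNA was made into libraries with a TruSeq Stranded kit, per the labels' protocols, and STAR, HOMER, DESeq2 and the build mm10 are named, per the submitters' processing notes, without their settings; whether counting used strand is not given in the sources used here. The members and gene lists were chosen with earlier results of these data known.

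The 6 libraries held 46.04 to 59.2 M gene counts. Genes (23755 in the table, 14475 after edgeR's filter on low counts) were fitted with edgeR 4.0.16 in R 4.3.3 (TMM, quasi-likelihood test, 1 term per group) over the 35 libraries of 9 groups of this experiment, and p-values were adjusted by Benjamini-Hochberg over all features. TE copies (3649575, of which 64924 had at least 10 counts in 3 libraries) and their subfamilies used the gene totals and TMM factors. The method was tested on simulated data. CPM are counts per 1 M of the TMM-scaled gene total. Counting intervals cover counting error only. The design text speaks of biological replicates; where libraries share a source, p-values measure only the spread between libraries.

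Libraries with the same cohort number deviated together (correlations 0.853, 0.846 and 0.891 over 9841 genes), against -0.661 to 0.082 for other pairs, so the number was treated as pairing and also fitted as a replicate block.

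Named were Myd88 and Ticam1, up to 4 called members of each list with the largest change and a group mean reaching 5 CPM at either time, up to 2 uncalled members with the highest level, up to 3 members of each list that differed from wild type, the 10 largest rises and falls without overlap, and the largest changes among subfamilies (at least 50 counts per library) and copies. Other named genes, such as Ifnb1, Isg15, Cxcl11, Il23a, Icam1, Nfkbia, Rela, Gbp2, Mavs, Klf4 and Abca1, were chosen after their values were seen. Alternatives were DESeq2 1.42.0, other scaling, no filter, other sets of libraries, the block, and leaving out each library; the fits without scaling factors and without the TrifKO libraries were chosen after seeing the data. The libraries labelled TrifKO enter the shared estimate of the spread. Their target transcript, Ticam1, was at 2.94 and 2.46 CPM in cohort 3 at 2 h and 4 h and at 29.8 to 50.3 CPM in the rest, so their labels are in doubt. Some genes of the lists are not reported here by name.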

Additional observations from a re-analysis of the deposited data

Results flagged for a closer look

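The response to LPS at 2 h differed between MyD88KO and wild-type cells in 15 of the named genes by the test of the difference itself (edgeR, Benjamini-Hochberg over all genes), each with the smaller fitted value in MyD88KO cells. On the log2 scale the difference was -4.43 for Ptgs2, -4.38 for Cxcl1, -3.71 for Il6 and -3.65 for Ccl3, which encode an inflammatory enzyme, 2 chemokines and a cytokine. Among regulators it was -2.67 for Socs3, -2.58 for Nfkbiz, -1.79 for Socs1, -1.70 for Zc3h12a and -1.61 for Cebpd. It was -2.26 for Slamf1, -1.44 for Csf1, -1.32 for Bcl2l11 and -1.17 for Nlrp3. The smallest were -0.88 for Myd88, the deleted gene itself, and -0.60 for Aim2. Of these, 8 were called without each of the 6 MyD88KO libraries in turn. Against wild-type libraries numbered below 33 alone, a smaller set, 5 of the 15 were called. Among those 8, Myd88, Il6, Bcl2l11 and Nlrp3 were not called in that setting (edgeR adjusted p = 0.0885, 0.0789, 0.124 and 0.623).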

How the results depend on the processing

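No named value changed direction across a threshold under the alternatives run. The replicate block, with cohorts as pairs, gave 4216 called genes (4638 in the 9 MyD88KO libraries alone) against 2326, 275 subfamilies (347 in the 9) against 73, 7756 copies against 4639 and 456 differences from wild type against 64. Subfamily calls were 112 with DESeq2, 198 in the 6 libraries alone, 217 in the 9 MyD88KO libraries and 145 with TMM factors of their own. Differences from wild type were 195 with DESeq2, 6 with the smaller set of wild-type libraries of low number and 39 without the TrifKO libraries. Leaving out 1 library gave 1682 to 2077 genes, 44 to 73 subfamilies, 2623 to 3803 copies, 19 to 36 differences and a change in TE share of 0.198 to 0.470 percentage points; the cause of these shifts was not tested. Of the 83 named genes that were called, 71 were called in every alternative, as were 9 of 13 subfamilies and 9 of 10 copies. With 3 libraries a group, an exact permutation of 1 value cannot go below p = 0.1, and genes with under 10 counts at 0 h have folds limited by counting.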
